A study of Mus musculus with 14 samples.

Results

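Kinesins, the motor proteins that walk along microtubules, were described here in multipotent progenitors (MPP) of old and young mouse bone marrow. Members were all genes with a symbol of Kif or Kifc followed by a number that had a probe set of their own, which gave 39 of the 19155 genes measured. The symbols were divided by known role into 11 mitotic kinesins, 14 transport kinesins and 14 others, with earlier results of these data known. Kif2a, which also acts at spindle poles, and Kif2b were counted among the others. Kif3c, Kifc1 and Kifc5b had no value of their own here. The 14 arrays were Affymetrix Mouse Gene ST 1.0 arrays, each from 20000 sorted cells of wild-type C57BL/6 mice. There were 3 arrays of old MPP4, 5 of young MPP4, 3 of old MPP3 and 3 of young MPP3, with old mice at 24 months and young mice at 8 to 10 weeks. No treatment is labelled, the labels call the arrays biological replicates, and whether mice were pooled is not given in the sources used here. Both populations were sorted from Lin- cells positive for cKit and Sca-1. MPP4, a lymphoid-biased progenitor, carried Flk2. MPP3, a myeloid-biased progenitor, was CD48+ and lacked Flk2 and, by the series record, CD150 (the study's methods text gives it as CD150+).

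A kinesin motor domain hydrolyses ATP and moves its cargo toward one end of the microtubule, and related domains instead take microtubules apart. Mitotic kinesins are made mainly in dividing cells before division, and they build the spindle, align chromosomes and complete cytokinesis. Transport kinesins carry vesicles, mitochondria and proteins, and several are best known from neurons. Multipotent progenitors divide more often than the stem cells from which they arise.

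The unit of all values is a score. The authors ranked the probe sets of each array and mapped the ranks on an exponential distribution, so a value is the negative natural log of the fraction of probe sets ranked at least as high. A value of a gene can be set against the same gene on another array, differences are given and never folds, and genes are not set against each other by level. All 11 mitotic kinesins, 9 of 14 transport kinesins and 5 of 14 others had a mean value above the middle rank (50% of probe sets). No gene was filtered out for a low value. In sorted bulk samples, fewer cells of a kind and less RNA per cell cannot be told apart.

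The promoters of these genes are shown first, because most mitotic kinesins share a sequence element near the start site. The cell cycle genes homology region (CHR) is an element that is known, in mouse and human, from genes that are silent in resting cells and active before division. It was searched as TTTGAA or TTCAAA (both strands) in the 300 bases from 250 before to 50 after the start site, and the CCAAT box, an element often found near it, as CCAAT or ATTGG. RefSeq (GRCm38.p6) held such a promoter for 30 of 39 members. The CHR letters were present in 9 of 10 mitotic kinesins, all but Kif18a, in 1 of 9 transport kinesins (Kif1a) and in 2 of 11 others (Kif26b and Kif27), against 20.2% of all genes. The CCAAT letters were present in 6 of 10 mitotic kinesins, 3 of 9 transport kinesins and 5 of 11 others, against 41.1% of all genes. No match of one element overlapped a match of the other in these genes. A match describes letters and does not show that a factor binds.

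Printed below are the 150 bases before the start site, 5′ to 3′ on the gene's strand, with CHR and CCAAT letters in capitals, for 4 mitotic kinesins with a CHR match in this window and 2 transport kinesins with none. The windows lie at chr19:37376232-37376381 on the plus strand (Kif11), chr9:122950931-122951080 on the plus strand (Kif15), chr7:127042421-127042570 on the minus strand (Kif22), chr4:117178773-117178922 on the minus strand (Kif2c), chr11:70700398-70700547 on the plus strand (Kif1c) and chr2:153291266-153291415 on the plus strand (Kif3b).
Kif11: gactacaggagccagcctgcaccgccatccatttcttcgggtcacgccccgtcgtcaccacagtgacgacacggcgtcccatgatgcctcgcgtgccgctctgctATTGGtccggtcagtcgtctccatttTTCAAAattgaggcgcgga
Kif15: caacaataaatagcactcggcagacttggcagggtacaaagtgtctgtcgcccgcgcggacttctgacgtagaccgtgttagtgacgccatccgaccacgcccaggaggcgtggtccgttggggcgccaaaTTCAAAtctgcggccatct
Kif22: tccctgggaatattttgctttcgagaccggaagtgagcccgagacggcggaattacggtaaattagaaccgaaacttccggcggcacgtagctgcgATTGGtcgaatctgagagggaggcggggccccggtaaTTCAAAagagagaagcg
Kif2c: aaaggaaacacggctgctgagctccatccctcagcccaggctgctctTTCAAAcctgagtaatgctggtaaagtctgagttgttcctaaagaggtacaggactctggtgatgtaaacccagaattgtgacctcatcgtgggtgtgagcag
Kif1c: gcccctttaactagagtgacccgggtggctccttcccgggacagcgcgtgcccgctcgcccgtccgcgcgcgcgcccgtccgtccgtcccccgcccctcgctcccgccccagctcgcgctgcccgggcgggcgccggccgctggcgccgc
Kif3b: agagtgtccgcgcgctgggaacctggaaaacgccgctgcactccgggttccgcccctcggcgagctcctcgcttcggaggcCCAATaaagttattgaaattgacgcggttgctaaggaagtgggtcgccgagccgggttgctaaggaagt
The CHR letters begin 19 bases before the start in Kif11 and Kif15, 17 in Kif22 and 103 in Kif2c. Kif11 and Kif22 also carry ATTGG upstream of it, beginning 45 and 54 bases before the start. The remaining matches of Kif4, Kif18b, Kif20b and Kif23 lie just after the start site, and that of Kif14 lies farther before it than the printed windows reach. Kif1c, chosen for its difference between the populations, holds neither element, and Kif3b holds only CCAAT, 69 bases before the start.

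The arrays were clustered by the dimmest 33.3% of probe sets, and the tree was cut into 2 sets, a number fixed in advance. No label describes these sets. Set 1 holds every old array together with replicate 1 of young MPP3 and replicates 1 and 2 of young MPP4, and set 2 holds the remaining 5 young arrays. The series record says that its young controls belong to an earlier series too, so array series and age cannot be told apart. Xist, the transcript of the inactive X chromosome, was between 2.23 and 3.52 on 4 young arrays and below 1 on the other 10, old ones included. Y-linked Eif2s3y was 1.69 to 2.06 on the old arrays, but 0.0221 and 0.0261 on replicate 1 of young MPP3 and young MPP4. Replicates 4 and 5 of young MPP4 held both, with Xist at 3.19 and 2.23 and Eif2s3y at 0.855 and 1.89. By these genes sex was not balanced between the ages. As a check of the sort, Flt3, the gene of Flk2, was higher in MPP4 than in MPP3 by 1.61 ± 0.183 in old and 0.993 ± 0.188 in young mice. Of the 4 sort markers measured (Flt3, Cd48, Slamf1 and Kit), 3 were higher in MPP4 in old mice and 1 in young mice. Slamf1, the gene of CD150, averaged 0.190 and 0.140 in old and young MPP3, against 0.115 and 0.122 in old and young MPP4.

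No kinesin passed an adjusted p of 0.05 in any of the 5 comparisons (limma with Benjamini-Hochberg adjustment over all 19155 genes). Few genes of any kind did: 0% of all genes were called between ages in MPP3, 0% between ages in MPP4, 0% between populations in old mice, 0.131% between populations in young mice and 0% for the difference between the age differences. The kinesins are therefore described by their values, by an unadjusted p under 0.05 and by whether the groups overlap, each beside the same share over all genes. The smallest adjusted p of a kinesin was 0.507 between ages in MPP3, 0.321 in MPP4, 0.203 between populations in old mice and 0.224 in young mice.

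The largest share of kinesins past an unadjusted p of 0.05 was found between ages in MPP4. Here 8 of 39 kinesins were higher in old cells, against 4.50% of all genes, and 1 was lower, against 5.27%. The 8 were 7 mitotic kinesins (Kif4, Kif2c, Kif11, Kif20b, Kif20a, Kif18a and Kif23) and Kif2a, and the 1 was the transport kinesin Kif1c. In 4 kinesins (Kif4, Kif2c, Kif11 and Kif2a) all old MPP4 arrays were above all young MPP4 arrays, a pattern of 3.28% of all genes, and in Kif1c all were below, a pattern of 4.01%. Of the mitotic kinesins 10 of 11 had a higher mean in old MPP4, with a median difference of 0.366 (range -0.0737 to 0.469), whereas 7 of 14 transport kinesins did, with a median of -0.000669 (range -0.178 to 0.0985). Over all genes 49.8% were higher and the median difference was -0.000171. The total of 9 kinesins past the unadjusted p depended on single arrays, with 3 without old MPP4 replicate 2, 5 without old MPP4 replicate 3 and 4 without young MPP4 replicate 3, and was 4 with arrays of Xist below 1.

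Kif4, an X-linked chromokinesin that binds chromosome arms and shapes the central spindle, had values of 1.65, 2.02 and 1.96 in old MPP4, against 1.43, 1.57, 1.41, 1.47 and 1.50 in young MPP4. The lowest old array was above the highest young one, and the difference was 0.405 ± 0.0849 (SE, adjusted p = 0.321). In MPP3 the values were 1.66, 1.85 and 1.43 in old cells and 1.47, 1.81 and 1.49 in young cells. These overlapped, with a difference of 0.0527 ± 0.143 (adjusted p = 0.946).

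Kif2c, a depolymerase that removes wrongly attached microtubules from kinetochores, had values of 1.20, 1.44 and 1.42 in old MPP4, against 1.18, 1.10, 1.13, 1.10 and 0.904 in young MPP4. The groups did not overlap, with a narrow gap between them, and differed by 0.269 ± 0.0777 (adjusted p = 0.393). Old MPP3 had 1.32, 1.77 and 1.25, against 0.758, 1.27 and 1.06 in young MPP3. Here 1 young array lay just inside the old range, 1 old array stood far above the other 2, and the difference was 0.420 ± 0.193 (adjusted p = 0.645).

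Kif11, the motor that pushes the spindle poles apart, was the only kinesin whose old arrays were all above the young ones in both populations. It had 2.98, 3.12 and 3.02 in old MPP4, against 2.22, 2.95, 2.56, 2.67 and 2.45 in young MPP4. The young values were widely spread and young MPP4 replicate 2 came close to the old arrays, with a difference of 0.469 ± 0.149 (adjusted p = 0.431). In MPP3 Kif11 had 2.98, 2.92 and 3.02 in old cells, against 2.74, 2.84 and 2.63 in young cells. This difference of 0.234 ± 0.0609 had the smallest adjusted p of the kinesins in MPP3, 0.507. Kif15, which works beside Kif11 to keep the spindle bipolar, had 2.18, 2.40 and 2.42 in old MPP4, against 1.31, 2.34, 1.95, 1.93 and 1.89 in young MPP4, and here old and young overlapped through young replicate 2 (difference 0.448 ± 0.206, adjusted p = 0.530).

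Among the cytokinesis motors, Kif20a, which brings the chromosomal passenger complex to the midzone, had 1.24, 1.31 and 1.03 in old MPP3, against 0.980, 0.970 and 0.797 in young MPP3. These did not overlap, and the difference was 0.279 ± 0.0935 (adjusted p = 0.562). In MPP4 Kif20a had 1.26, 1.41 and 1.43 in old cells, against 1.03, 1.36, 1.00, 1.19 and 0.907 in young cells, where young replicate 2 lay inside the old range (difference 0.266 ± 0.104, adjusted p = 0.489). Kif23, a subunit of centralspindlin, had 2.63, 2.59 and 2.61 in old MPP3, against 2.54, 2.42 and 2.22 in young MPP3, again with no overlap (difference 0.216 ± 0.0860, adjusted p = 0.613). Against young MPP3 replicate 1 alone, the only young MPP3 array of set 1, the difference was 0.0664. In MPP4 Kif23 had 2.72, 2.77 and 2.81 in old cells, against 2.73, 2.68, 2.23, 2.13 and 2.08 in young cells. The young arrays of MPP4 formed a high pair and a low trio (difference 0.395 ± 0.168, adjusted p = 0.511), and the mean of the high pair was 0.0619 below that of the old arrays. Kif20b, a midbody motor, had 2.16, 2.35 and 2.39 in old MPP4, against 1.63, 2.30, 1.85, 1.81 and 1.99 in young MPP4. Only young replicate 2 reached the old range (difference 0.385 ± 0.143, adjusted p = 0.472), and in MPP3 the difference was 0.142 ± 0.102.

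Kif18a, which limits the swing of chromosomes at the spindle equator, had 1.26, 1.53 and 1.31 in old MPP4, against 0.694, 1.35, 0.824, 1.04 and 1.10 in young MPP4. Young replicate 2 overlapped the old arrays, and the difference was 0.366 ± 0.148 (adjusted p = 0.490) in MPP4 and 0.146 ± 0.115 in MPP3. Kif18b, which shortens astral microtubules, and Kif14, a motor of the midbody, had differences between 0.0486 and 0.0978 in both populations. Kif22, a chromokinesin, was the only 1 of these 11 with a lower mean in old cells. Its differences were -0.0737 ± 0.0931 in MPP4 and -0.0291 ± 0.202 in MPP3, each smaller than its SE. The mitotic list held 13 symbols, and the probe set shared by Kifc1 and Kifc5b was left out of all counts. It ran lower in old MPP4, with 1.26, 1.38 and 1.25, against 1.42, 1.47, 1.48, 1.51 and 1.37 in young MPP4. In MPP3 it overlapped, with 1.50, 1.27 and 1.65 in old cells, against 1.53, 1.47 and 1.45 in young cells.

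**Figure D1:**
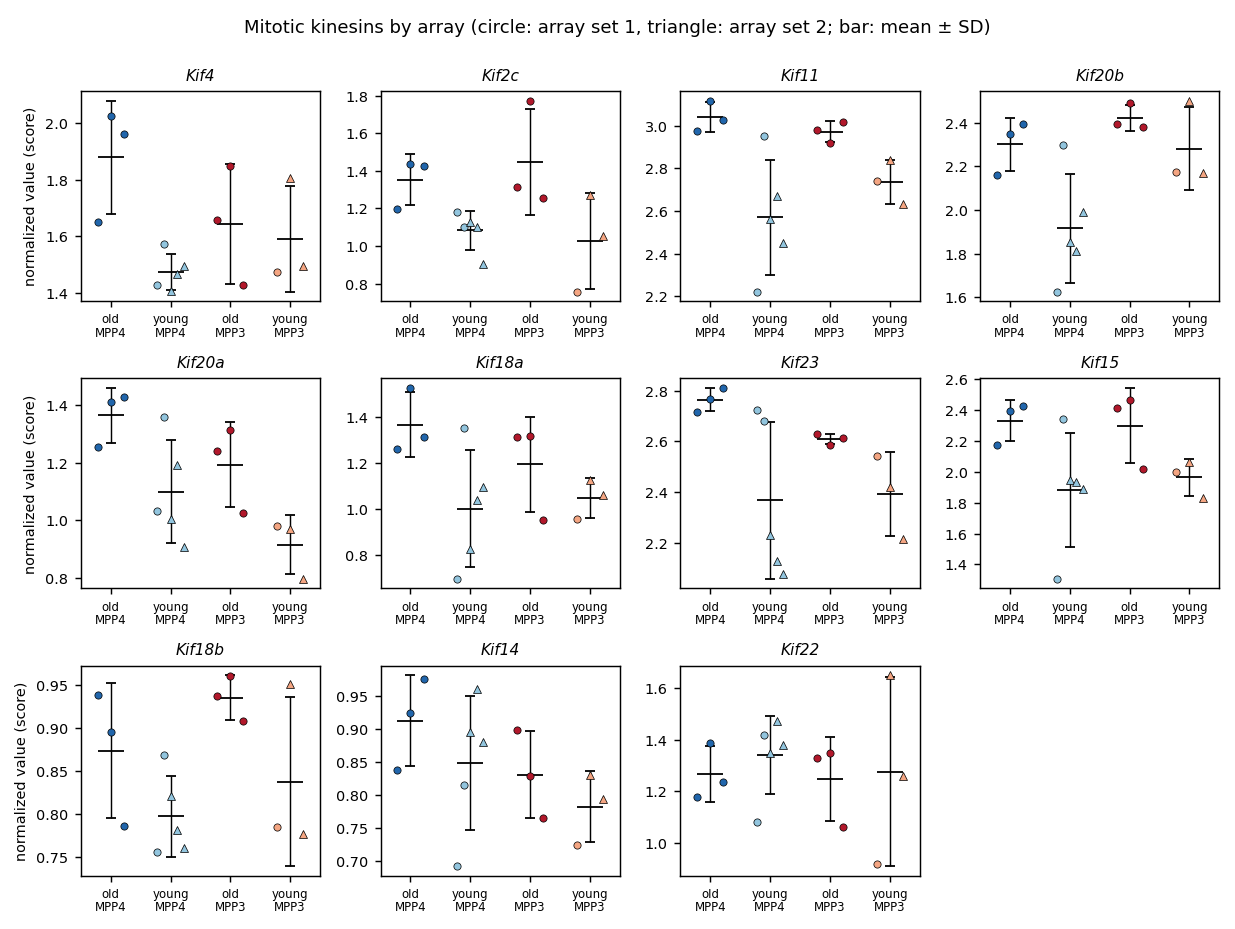
Normalized value (score, y axis) of each of the 11 mitotic kinesins on every array, by group (x axis), with the mean and SD as a bar. Circles and triangles are array sets 1 and 2, panels are ordered by the moderated statistic of old against young MPP4, and the old arrays of Kif4, Kif2c and Kif11 all lie above the young ones in MPP4.

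In MPP3 fewer kinesins passed between ages. Unadjusted, 3 of 39 kinesins were higher in old cells, against 3.44% of all genes, and 2 were lower, against 4.75%. Without overlap, 5 were higher (Kif11, Kif20a, Kif23, Kif5c and Kif4-ps, a transcribed pseudogene of Kif4), against 6.14%, and 2 were lower (Kif26a and Kif21a), against 8.04%. The mitotic kinesins again had 10 of 11 means higher in old cells, with a median difference of 0.146 (range -0.0291 to 0.420), and the transport kinesins 8 of 14, with a median of 0.0271 (range -0.246 to 0.147). Over all genes 50.1% were higher, with a median of 0.000183. Leaving out young MPP3 replicate 2 brought the mitotic median in MPP3 to 0.229 and leaving out young MPP3 replicate 1 to 0.0996. The total of 5 kinesins past the unadjusted p was 1 without old MPP3 replicate 1, 3 without old MPP3 replicate 2 and 2 without young MPP3 replicate 3.

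Averaged over the 11 genes, the mitotic kinesins had 1.67, 1.84 and 1.80 in old MPP4, against 1.34, 1.71, 1.46, 1.51 and 1.44 in young MPP4. They had 1.74, 1.80 and 1.58 in old MPP3, against 1.46, 1.67 and 1.46 in young MPP3. In each population 1 young array, replicate 2, lay inside the range of the old arrays and the others lay below it. The means were 1.77 ± 0.0892 and 1.49 ± 0.135 in old and young MPP4, and 1.71 ± 0.113 and 1.53 ± 0.124 in old and young MPP3 (SD, n = 3, 5, 3 and 3). The transport kinesins averaged 0.929 ± 0.0253 and 0.939 ± 0.0466 in old and young MPP4, and 0.889 ± 0.0179 and 0.880 ± 0.0531 in old and young MPP3.

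Within set 1, 11 of 11 mitotic kinesins were higher in old MPP4 than in young MPP4 (median 0.210) and 11 of 11 in old MPP3 than in the 1 young MPP3 array (median 0.232), against 9 of 14 and 10 of 14 transport kinesins and 44.3% and 45.9% of all genes. Set 1 holds only 2 young MPP4 arrays, however, and the median rests on the lower one. In a comparison chosen after the data were seen, old MPP4 was set against each alone: 11 of 11 mitotic kinesins were higher than on replicate 1 (median 0.334) and 9 of 11 than on replicate 2, with a median of 0.0146. Of the young arrays of set 1, only this young MPP4 replicate 2 was like the old arrays in Xist (0.138) and Eif2s3y (1.66). Replicate 1 of young MPP3 and of young MPP4 had Xist of 3.52 and 3.49, so both counts of 11 of 11 mix array set with sex. The difference between old and young MPP4 within set 1 was 0.379 for Kif4, 0.452 for Kif11 and 0.210 for Kif2c, and 0.0619 for Kif23, whose young arrays differed by set with no overlap, with 2.54 to 2.73 in set 1 and 2.08 to 2.42 in set 2. The young arrays of 8 kinesins separated by set in this way, with set 1 higher in Kif23, Kif7, Kif12, Kif24 and Kif26b, against 13.5% of all genes, and lower in Kif13b, Kif21a and Kif5b, against 8.04%. With only the arrays whose Xist was below 1, the difference of X-linked Kif4 in MPP4 was 0.389 and the mitotic median was 0.225 in MPP4 and 0.0996 in MPP3.

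Markers of other cells differed with age by list, without a common direction. The 4 myeloid progenitor markers (Mpo, Elane, Prtn3 and Ctsg) averaged 2.52 to 4.06 in old MPP3, against 2.13 to 2.92 in young MPP3, with 4 of 4 higher, and 1.71 to 1.76 in old MPP4, against 1.38 to 1.69 in young MPP4, with 3 of 4 higher. The 5 neutrophil markers averaged 1.34 to 2.02 in old MPP3, against 0.823 to 1.28 in young MPP3, with 5 of 5 higher, and 0.493 to 0.752 and 0.435 to 0.712 in old and young MPP4, with 4 of 5 higher. The T and NK cell markers averaged 1.09 to 1.21 in old MPP3, against 0.931 to 1.02 in young MPP3, without overlap, and 0.880 to 0.956 and 0.753 to 0.970 in old and young MPP4, with 3 of 4 higher in each population. In the other direction, 1 of 4 erythroid markers was higher in each population, with averages of 0.871 to 1.08 and 0.937 to 1.32 in old and young MPP3 and 0.520 to 0.600 and 0.523 to 0.951 in old and young MPP4. Of 3 B lineage markers, 0 were higher in old MPP3 (0.389 to 0.915, against 0.586 to 0.821 in young MPP3) and 3 in old MPP4 (0.389 to 0.485, against 0.298 to 0.561 in young MPP4). Stromal and endothelial markers were higher in 3 of 4 cases in old MPP3 and 2 of 4 in old MPP4, and neuronal markers in 2 of 3 and 1 of 3. This rank scale has no true zero, so none can be called absent, and the part of these cells in the kinesin differences was not tested.

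**Figure D2:**
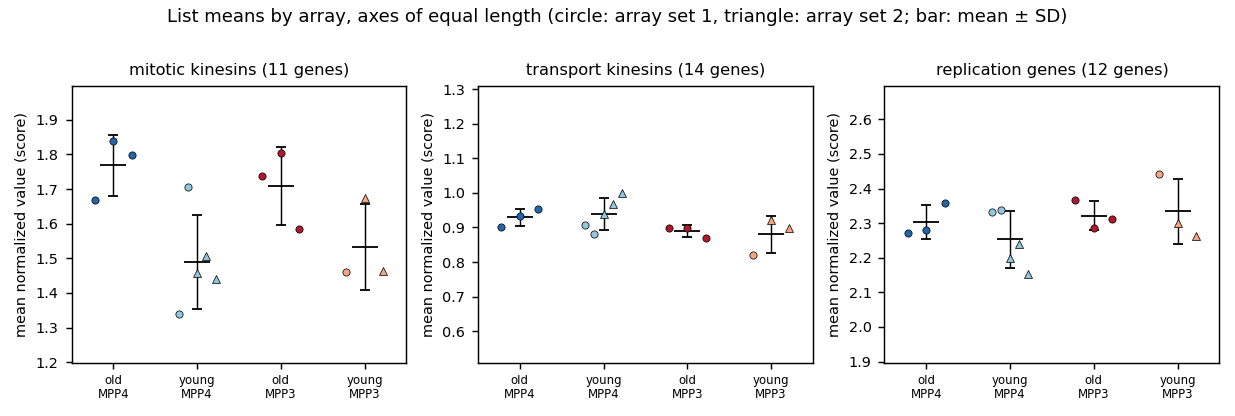
Mean score (y axis, the same length in each panel) of the 11 mitotic kinesins, the 14 transport kinesins and 12 replication genes on each array, by group (x axis), with the group mean and SD as a bar. The old arrays of the mitotic kinesins lie between 1.58 and 1.84 and the young ones between 1.34 and 1.71, with replicate 2 of each young group inside the old range, and old and young overlap in the other lists too.

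Whether age differences themselves differed between MPP4 and MPP3 was tested on all 14 arrays. Unadjusted, 2 kinesins were higher (Kif26a and Kif13b), against 3.44% of all genes, and 2 were lower (Kif9 and Kif5c), against 2.83%, and the smallest adjusted p was 0.698. Of the mitotic kinesins, 7 of 11 had a larger age difference in MPP4, with a median of 0.114, but the largest of these, 0.352 ± 0.166 for Kif4, had an adjusted p of 0.821. That median was -0.0240 without young MPP4 replicate 1 and -0.0175 without old MPP3 replicate 3. A larger effect in MPP4 was thus not shown for any mitotic kinesin. The transport median was -0.0237.

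Genes that work with mitotic kinesins were mostly higher in old cells too. Of 14 genes listed as partners, most of which bind, recruit or phosphorylate these motors, 13 were higher in old MPP3 (median 0.199) and 14 in old MPP4 (median 0.264), with 3 and 9 higher at an unadjusted p under 0.05, against 3.44% and 4.50% of all genes, and none past an adjusted one. The list includes Cenpe, which is itself a mitotic kinesin under another symbol. Without Cenpe, a change made after the data were seen, 12 of 13 were higher in old MPP3 (median 0.196, 3 past the unadjusted p) and 13 of 13 in old MPP4 (median 0.258, 8 past it). Nusap1, a spindle protein that binds microtubules, had 2.57, 2.84 and 2.63 in old MPP4, against 1.64, 2.41, 2.12, 2.08 and 2.00 in young MPP4, a difference of 0.627 ± 0.159 (adjusted p = 0.361). No young array reached the old range, and young replicate 1 was far below it. Prc1, the antiparallel microtubule bundler that Kif4 carries to the midzone, differed by 0.270 ± 0.0696 (adjusted p = 0.364). In MPP3 the leading partners were Aurka, the kinase of the spindle poles, with a difference of 0.413 ± 0.0821, and Cdca8, a chromosomal passenger subunit, with 0.302 ± 0.0558 (adjusted p = 0.471 each).

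Replication genes had no common direction. Of 12 genes of the replicative helicase, its loading, the polymerase clamp (Pcna) and nucleotide supply, 4 were higher in old MPP3 (median -0.0260) and 7 in old MPP4 (median 0.0393). Rrm1, a ribonucleotide reductase subunit, differed by 0.336 ± 0.0941 in MPP4 (adjusted p = 0.383), and Mcm7, a helicase subunit, by -0.173 ± 0.0540 in MPP3 (adjusted p = 0.549). The partners of transport kinesins (light chains and cargo adaptors) were higher in 3 of 12 cases in old MPP3 (median -0.0844) and in 7 of 12 in old MPP4 (median 0.0424). Spag9, an adaptor that links kinesin-1 to its cargo, had a difference of -0.227 ± 0.0402 in MPP3 and Dynll1, a dynein light chain, one of -0.376 ± 0.0454 (old minus young, adjusted p = 0.471 each). The dynein list held 13 genes of the motor that walks the other way and of its cofactors, such as Dctn1 and Nde1. Of these, 3 were higher in old MPP3 and 8 in old MPP4.

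**Figure D3:**
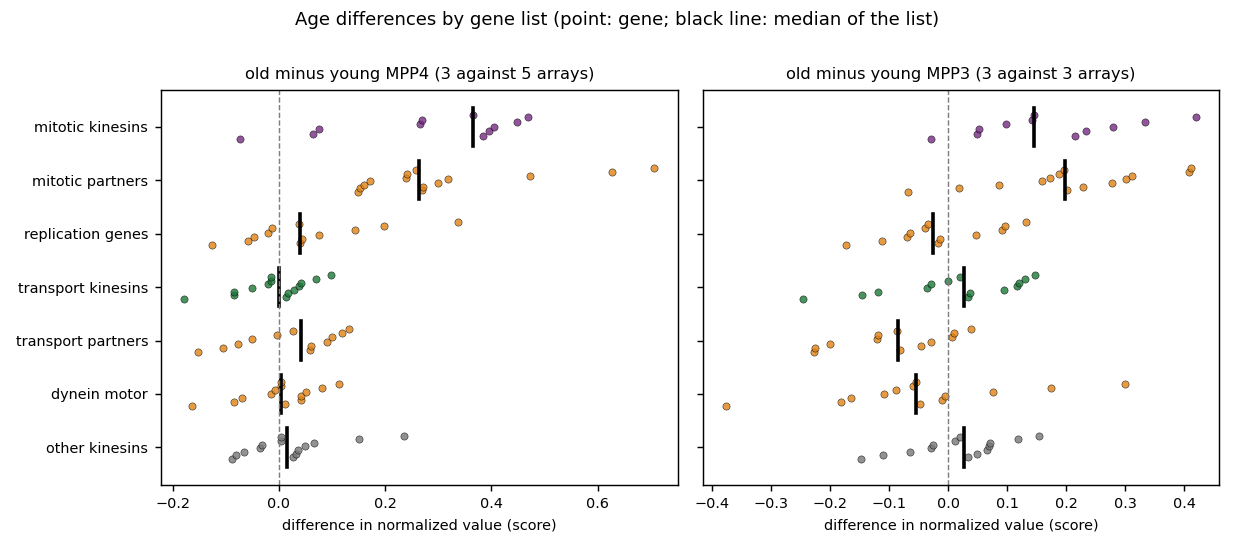
Difference in score between old and young MPP4 (left) and old and young MPP3 (right), 1 point per gene, by gene list (y axis), with the median of each list as a black line. Mitotic kinesins and their partners (Cenpe included) lie mostly to the right of 0, with medians of 0.366 and 0.264 in MPP4 and 0.146 and 0.199 in MPP3, and the transport kinesins lie around 0.

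Among the transport kinesins, the smallest adjusted p lay between populations. Kif1c, a kinesin-3 motor that carries integrins and vesicles, had 1.00, 1.02 and 0.990 in old MPP4, against 0.613, 0.714 and 0.695 in old MPP3. The groups were tight and far apart, and the difference of 0.330 ± 0.0333 had the smallest adjusted p of the kinesins in old mice, 0.203. In young mice Kif1c had 1.36, 1.05, 1.24, 1.04 and 1.21 in MPP4, against 0.474, 0.917 and 1.07 in MPP3, a difference of 0.362 ± 0.140 (adjusted p = 0.411), with overlap and with 1 very low MPP3 array. Between ages in MPP4, all old arrays of Kif1c were below the young ones (difference -0.178 ± 0.0751, adjusted p = 0.508).

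Kif13b, a kinesin-3 motor of growth factor receptor transport, had 0.937, 1.10 and 1.03 in old MPP4, against 0.866, 0.874 and 0.656 in old MPP3, with no overlap (difference 0.226 ± 0.0773, adjusted p = 0.452). Young MPP3 had 0.836, 1.17 and 1.13, of which only replicate 1 lay in the range of old MPP3 (old minus young -0.246 ± 0.112, adjusted p = 0.642). That replicate is the only young MPP3 array of set 1, and against it alone the difference was -0.0373, and likewise -0.0525 for Kif21a, in place of -0.111. Kif5c, a kinesin-1 heavy chain best known from neurons, ran the other way, with 0.514, 0.448 and 0.491 in old MPP4, against 0.669, 0.532 and 0.663 in old MPP3 (difference -0.137 ± 0.0459, adjusted p = 0.445). In young mice Kif17, a kinesin-2 motor of dendrites and cilia, had 0.816, 0.792, 1.04, 0.969 and 1.10 in MPP4, against 0.754, 0.729 and 0.699 in MPP3. All MPP4 arrays were above the MPP3 arrays, and the difference was 0.217 ± 0.0761 (adjusted p = 0.363). By array set, young MPP4 averaged 0.804 in set 1, against 0.754 on the only young MPP3 array of set 1. In set 2 the averages were 1.04 in young MPP4 and 0.714 in young MPP3, so the gap was narrower in set 1.

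The other transport kinesins were Kif5b and Kif5a, kinesin-1 heavy chains, Kif1a and Kif1b of kinesin-3, Kif3a and Kif3b, which form the kinesin-2 motor of cilia, Kif13a and Kif16b, endosome motors, and Kifc2 and Kifc3, minus-end motors. Their differences between old and young lay between -0.118 (Kif3a) and 0.147 (Kif5a) in MPP3 and between -0.0853 (Kif3b) and 0.0985 (Kif1a) in MPP4. Kif5b, the ubiquitous member, averaged 2.02 ± 0.0692 and 1.96 ± 0.293 in old and young MPP4 and 2.12 ± 0.0585 and 2.03 ± 0.0861 in old and young MPP3 (SD, n = 3, 5, 3 and 3), and these groups overlapped.

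In old mice 4 kinesins were higher in MPP4 at an unadjusted p under 0.05 (Kif1c, Kif21b, Kif23 and Kif13b), against 6.19% of all genes, and Kif5c was lower, against 3.64%. In 5 the old MPP4 arrays were all above the old MPP3 arrays, against 9.03% of all genes, and in 2 all below, against 7.60%. In young mice 3 were higher (Kif17, Kif1c and Kif9), against 5.48%, and 2 lower (Kif26a and Kif20b), against 5.53%, and 2 had MPP4 arrays all above, against 3.74%, and 1 all below, against 3.72%. The 5 past the unadjusted p in old mice were 8 without old MPP3 replicate 2 and 3 without old MPP4 replicate 2, and the 5 in young mice were 3 without young MPP3 replicate 3, young MPP4 replicate 3 or young MPP4 replicate 5. Of the mitotic kinesins, 8 of 11 were higher in old MPP4 than in old MPP3 (median 0.0683) and 4 of 11 higher in young MPP4 than in young MPP3 (median -0.0405, and 0.0300 without young MPP4 replicate 1). The median of the transport kinesins was -0.00718 in old and 0.0147 in young mice. Kif23 was the mitotic kinesin with the largest statistic in old mice (0.155 ± 0.0308, adjusted p = 0.305), and Kif20b in young mice, where it was lower in MPP4 (-0.364 ± 0.154, adjusted p = 0.449).

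Of the other kinesins, Kif2a, a depolymerase related to Kif2c that acts at spindle poles and in resting cells, had 2.96, 3.02 and 2.99 in old MPP4, against 2.87, 2.85, 2.72, 2.85 and 2.89 in young MPP4. Old and young did not overlap, and the difference was 0.150 ± 0.0399 (adjusted p = 0.365). Kif26a, an unusual kinesin without motor activity, had 0.865, 0.826, 0.761, 0.815 and 0.783 in young MPP4, against 1.07, 0.968 and 0.899 in young MPP3. No young MPP4 array reached the MPP3 range, and the difference of -0.169 ± 0.0420 had the smallest adjusted p of the kinesins in young mice, 0.224. In old MPP3 Kif26a had 0.803, 0.875 and 0.816, all below young MPP3 (difference -0.147 ± 0.0516, adjusted p = 0.576), and the difference between the populations in old mice was 0.0145 ± 0.0302. Kif21b, which pauses microtubule growth, was higher in old MPP4 than in old MPP3 by 0.173 ± 0.0302 (adjusted p = 0.251), and Kif9, known from cilia, was higher in young MPP4 than in young MPP3 by 0.146 ± 0.0431 (adjusted p = 0.279). Kif19a and Kif6, also known from cilia, Kif7, a regulator of Hedgehog signalling, and Kif12, Kif21a, Kif24, Kif26b, Kif27, Kif2b and Kif4-ps had age differences between -0.111 and 0.236 in both populations.

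**Figure D4:**
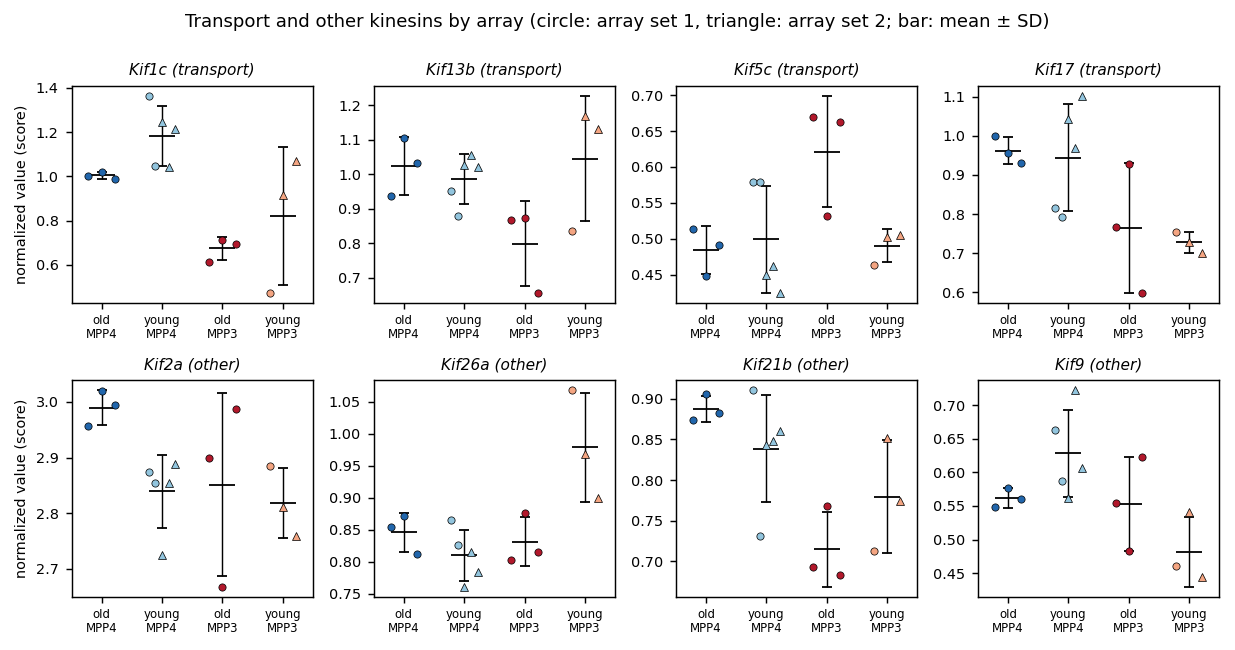
Score (y axis) of 4 transport kinesins and 4 others on every array, by group (x axis), with the mean and SD as a bar. Kif1c is higher in old MPP4 than in old MPP3 on all arrays, and young MPP3 is higher than the other groups in Kif26a.

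How far the members moved together from array to array was described by a correlation over the 14 arrays, which share a platform and scale. Each member was correlated with the mean of the other mitotic kinesins, after each group's mean was removed. Differences between the array sets and in Xist within the young groups were not removed. The median r was 0.687 for the mitotic kinesins (8 of 11 above 0.5), -0.00785 for the transport kinesins (0 of 14 above 0.5, highest 0.369 for Kif3b) and -0.133 for the others (1 above 0.5, Kif24). Kif20b (0.839), Kif18a (0.803) and Kif15 (0.793) followed the mean most closely, and in each of them young MPP4 replicate 1 was the lowest and replicate 2 the highest of the young MPP4 arrays. Kif23 was the exception among mitotic kinesins, with -0.00636. Kif24 (0.560), a depolymerase of centrioles, and Kif19a (-0.733) were the members outside the mitotic class with the strongest values in each direction.

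**Figure D5:**
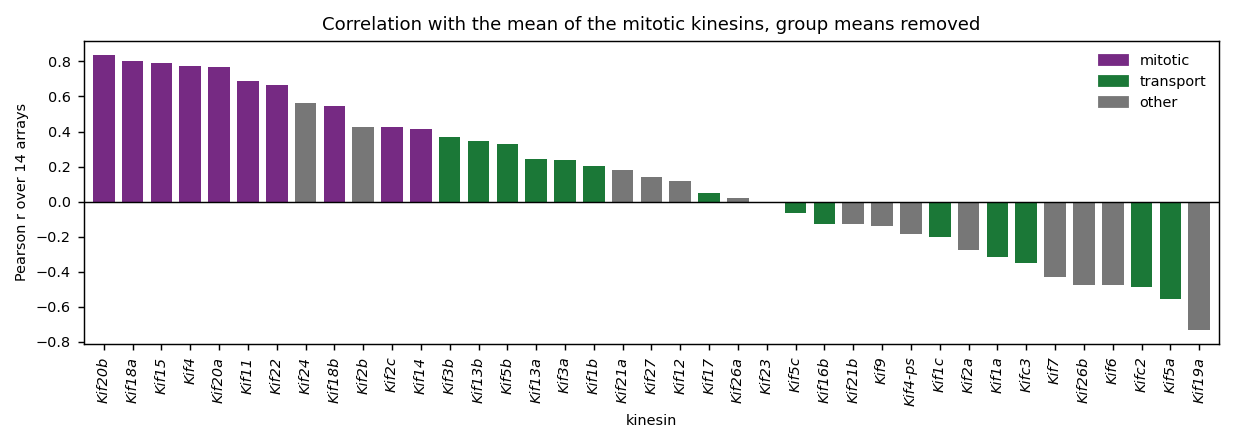
Pearson r (y axis) of each of the 39 kinesins (x axis, ordered by r) with the mean of the mitotic kinesins, the gene itself left out, over 14 arrays with group means removed. Purple bars are mitotic, green transport and grey other kinesins, and the 7 highest are all mitotic, whereas Kif23, mitotic as well, is at -0.00636.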

How the data were processed

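RNA of 20000 sorted cells per sample was amplified linearly and hybridized to mouse Gene ST 1.0 arrays. The authors normalized the deposited score values by RMA, whose version is not given in the sources used here, and by quantile mapping on a standard exponential distribution in R. Of the values, 92.3% were whole ranks of 25307 within 0.01. The values were used as deposited, and the number of arrays limits the precision. Of 22115 probe sets, 2135 were not listed in the platform annotation and 744 had several symbols, 1 of these a kinesin probe set, and these were left out. For genes with several probe sets, Kif26b among the kinesins, the one with the highest mean was used.

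For differences, lmFit and eBayes of limma 3.58.1 (R 4.3.3) were used, two-sided, with the arrays of the 2 groups compared, or all 4 groups for the difference between age differences, and Benjamini-Hochberg adjustment over all 19155 genes at 0.05. SAM, which the methods name, was not run. Alternatives were other scales, centring, filters, variance models, weights, array sets, a replicate block and leaving out each array. Gene lists are described by counts and medians, without a test. The members, the classes and the lists were chosen with earlier results of these data known. Named genes were Kif11, Kif20a, Kif23, Kif2c, sort markers and, in each comparison, the 3 members of each class with the largest moderated statistic. Some of the 2 members leading each partner list in a comparison were named too. Members named beyond these were chosen after their values were seen. On simulated data the MPP3 fit recovered 50% of added differences of 0.5 and 87% of 1, with 14 false calls. The MPP4 fit recovered 78% and 96%, with 17. The differences were added to genes drawn at random from all genes, with independent normal noise. The recovered shares therefore do not give the power for the kinesins. Figures were drawn with Python 3.11.15.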

Additional observations from a re-analysis of the deposited data

Results flagged for a closer look

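Of 26 sets of values in young MPP4, the only group with enough arrays to test, 3 held 1 array far from the other 4 by Dixon's ratio of gap to range, and chance flags about 1 in 20 groups. Kif2c had 0.904 on young MPP4 replicate 5, against 1.10 to 1.18 on the other young MPP4 arrays. Kif5b, a kinesin-1 heavy chain, had 1.46 on young MPP4 replicate 1, against 1.98 to 2.19 on the others. Kif2a had 2.72 on young MPP4 replicate 3, against 2.85 to 2.89 on the others.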

How the results depend on the processing

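No kinesin passed in any comparison under 1 fit of all groups, normal scores, a percentile scale, centred arrays or a variance trend. The same held under a filter on dim genes (which kept 35 of 39 kinesins), an unmoderated t-test, a mean of probe sets and arrays with Xist below 1. None passed with any 1 array left out, nor with array set 1 only, which was run for ages in MPP4 and for old populations. Array weights were the exception, with 1 call in MPP4 between ages (Kif4, 0.450, adjusted p = 0.0492), 2 between young populations (Kif17, 0.282, adjusted p = 0.0265, and Kif26a, -0.136, adjusted p = 0.0375) and 1 in the difference of age differences (Kif26a, 0.171, adjusted p = 0.0490), whose transport median was then -0.0666. Adjusted p of Kif4 in MPP4 lay between 0.0492 and 0.734 over all settings.

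The mitotic median in MPP4 was 0.366 in the report and 0.210 with array set 1 only, 0.225 with only arrays with Xist below 1 (transport 0.0385) and 0.233 with the replicate number as a block over the 3 numbers both ages have. Against young MPP4 replicate 2 alone, the only young array of set 1 with Xist below 1, it was 0.0146 (transport 0.0387). Against replicate 1 of set 1 alone it was 0.334 (transport -0.0394), and both comparisons were chosen after seeing the data. Same-numbered arrays did not always deviate together (correlations of -0.192 to 0.407). Between the young populations the correlations were 0.407, -0.148 and 0.178 for replicates 1, 2 and 3. Pairing by number was thus neither shown nor excluded there, and the main fits were unpaired. The block moved no count of adjusted calls. The kinesins past an unadjusted p of 0.05 between ages in MPP4 were 9 in the report, 6 with the block, 4 with the unmoderated test and 16 with array weights.

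With 1 array left out, the mitotic count higher in old cells stayed at 9 to 11 in MPP3 and 10 in MPP4, and the median at 0.0996 to 0.229 in MPP3 and 0.286 to 0.430 in MPP4. For the difference of age differences the mitotic median ran from -0.0240 to 0.228 and the transport count from 2 to 7, and the transport median in old mice from -0.0176 to 0.0174. Between young populations Kif23 turned to 0.151 (block) and 0.136 (Xist below 1) and ran from -0.114 to 0.0501 with 1 array left out, Kif2c turned to -0.0517 (weights) and -0.0469 (Xist below 1) and ran from -0.0789 (without young MPP3 replicate 1) to 0.177, and Kif11 to 0.0222 (Xist below 1). Kif1a between ages in MPP4 turned to -0.0245 in set 1. Kif2c between old populations ran from -0.191 to 0.0674 (without old MPP3 replicate 2). In the difference of age differences Kif2c turned to 0.0491 (weights) and ran from -0.272 to 0.0115 (without old MPP3 replicate 2), and Kif20a ran from -0.0964 to 0.0526. The causes were not tested. Array set 1 was not run for ages in MPP3, young populations or the difference of age differences, where set 1 holds only 1 young MPP3 array, and list medians were not computed where only the test or the scale changed.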
